A study of Homo sapiens with 6 samples.

Results

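The genes for 7SL RNA described here are RN7SL1, RN7SL2 and RN7SL4P, taken by their symbols as 3 of the 219 features in a table of normalized read counts. 7SL RNA is the RNA scaffold of the signal recognition particle, which binds the signal peptide of a growing secretory or membrane protein and brings the ribosome to the endoplasmic reticulum. The RNA folds into an Alu domain, made from its 5′ and 3′ ends, and an S domain, made from its middle part. It is transcribed by RNA polymerase III, it is among the most abundant non-coding RNAs of a cell, and the Alu repeats of the primate genome descend from it. RN7SL1 and RN7SL2 are functional genes, whereas the symbol RN7SL4P marks a pseudogene.

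The cells were MDA-MB-231, an established human line of triple-negative breast cancer, which the sample labels spell MBA-MD-231. The labels give both groups the same protocol, with lentiviral transduction and growth in puromycin at 10 µg/ml. The control group is labelled shControl with the genotype wildtype, and the study names a scramble hairpin as the control of this line in its other experiments. The other group carried a short hairpin RNA against RESF1, and its column names give this hairpin as G5, so that the group rests on a single hairpin. Each group had 3 libraries, which the paper's methods describe as triplicate seedings at equal density, collected after 24 hours. The libraries are named here by their column, 1 to 3 for shControl and 4 to 6 for knockdown. Whether the 3 libraries of a group came from separate transductions is not given in the sources used here, so that p-values measure the spread between these libraries only. The hairpin's target and markers of the cell line are not among the 44 symbols of the table, and neither could be checked here. The paper shows the knockdown of RESF1 in this line by qRT-PCR and by western blot. It does not tie these measurements to the sequenced libraries.

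In GENCODE 44 on GRCh38, RN7SL1 is a gene of 299 bases on the plus strand of chromosome 14 (49586580 to 49586878). It lies in an intron of RPS29, a ribosomal protein gene, on the opposite strand. RN7SL2 has 300 bases on the minus strand of chromosome 14 (49862550 to 49862849) and overlaps an exon of a long non-coding RNA gene on the same strand. RN7SL4P has 295 bases on the plus strand of chromosome 3 (15738515 to 15738809) and lies in an intron of ANKRD28, on the opposite strand. The authors aligned to the T2Tv2a genome, so these positions are those of the annotated genes and not of the counted intervals. Libraries were stranded, but whether strand was used in counting is not given in the sources used here.

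The annotated transcripts of the copies are close to each other, and their few differences decide which reads can be told apart. RN7SL2 differed from RN7SL1 by 4 substitutions and 1 added base at its 3′ end, and 295 of 300 aligned columns were identical. RN7SL4P shared its first 232 bases with RN7SL1 apart from 6 substitutions. Its last 63 bases could not be matched, so that this copy lacks the 3′ end of the 7SL RNA, part of the Alu domain. Over the same 232 bases RN7SL4P differed from RN7SL2 by 3 substitutions, and within this stretch it was closer to RN7SL2 than to RN7SL1.

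The copies were also compared by the sequence that could tell their reads apart. Of the 200 windows of 100 bases in RN7SL1, 94 (47.0%) occurred in neither other copy. RN7SL2 had 36 such windows of 201 (17.9%) and RN7SL4P had 103 of 196 (52.6%). RN7SL2 thus had the least sequence of its own, and every one of its 36 windows also occurred in another annotated transcript. The transcripts searched included those of the long non-coding RNA gene whose exon RN7SL2 overlaps. Which transcripts held the windows was not recorded, so these matches need not lie in another copy. For RN7SL1 51 windows (25.5%) occurred in no other annotated transcript, and for RN7SL4P all 103 did. With windows of 50 bases the shares found in neither other copy were 36.8% for RN7SL1, 13.5% for RN7SL2 and 41.9% for RN7SL4P. The read length is not given in the sources used here, and how the authors assigned reads that match several copies is not either, so the division of reads between copies is uncertain.

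GENCODE 44 holds 680 genes whose symbol is RN7SL with a number. The 3 copies above were those that the table lists by symbol. RN7SL3, a further gene of 299 bases on chromosome 14 with 97.7% identity to RN7SL1, was not among the symbols. Its reads are not analysed here.

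The study concerns guanine quadruplexes, stacked structures formed by runs of G. Each transcript was therefore searched for 4 runs of GG separated by gaps of 1 to 7 bases, on both strands. All 3 copies held 3 such stretches on the RNA strand and 0 on the opposite strand. They covered 76 bases in RN7SL1 and RN7SL2 and 64 bases in RN7SL4P. Of 1451 other annotated transcripts of 290 to 310 bases, without those named for 7SL, 46.8% held the pattern on the RNA strand and 42.0% on the opposite strand. The pattern is common and is a match of letters, not a measured structure. The study predicted quadruplexes with other tools and rules, so the lack of a match on the opposite strand cannot be set against its predictions.

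The main comparison asks how the 7SL RNA differed after depletion of RESF1, and all 3 copies were lower in the knockdown libraries. RN7SL1 and RN7SL2 fell by 22.5% and 22.7%, and RN7SL4P fell by 15.7%, as changes of the group means. Of the 219 features of the table, 100% had groups that do not overlap and 100% had a limma adjusted p of at most 0.05. Features called lower in knockdown made up 45.2%. The table thus holds only features that separate the groups, and that 3 of 3 copies were called is no result about the copies. In bulk RNA, fewer cells that express a gene and less of its RNA per cell cannot be told apart. What can be read from the table is the size of the changes in these libraries and how they compare with each other. A list that holds only features that separate the groups can overstate changes and understate spread. The sizes, SEs and intervals below therefore describe these libraries only.

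RN7SL1, the most abundant feature of the table, had normalized read counts of 915297, 856655 and 858016 in shControl. In the knockdown libraries it had 645371, 722483 and 671133. The lowest shControl library was thus 134172 above the highest knockdown library, and the library in column 1 was the highest of all. The log2 change was -0.37 (SE 0.066, 95% interval -0.53 to -0.21, limma adjusted p 0.00208). This is a level 1.29-fold higher in shControl than in knockdown.

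RN7SL2, which encodes a near-identical RNA, ranked 4 in mean level among the 198 distinct features. Its normalized read counts were 43841.4, 38976.2 and 40453.9 in shControl. The knockdown libraries had 30927.2, 31849.2 and 32467.2. The groups did not overlap, and the spread was wider in shControl (coefficient of variation 6.07%) than in knockdown (2.44%). The log2 change was -0.37 (SE 0.064, 95% interval -0.52 to -0.22, limma adjusted p 0.00197).

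RN7SL4P, the pseudogene copy, ranked 52 in mean level. Its normalized read counts were 1271.44, 1352.07 and 1324.17 in shControl and 1146.2, 1155.39 and 1026.72 in knockdown. The library in column 1, the highest of the shControl libraries for RN7SL1 and RN7SL2, was the lowest of them for RN7SL4P. The gap between the groups was 116 normalized reads, or 9.13% of the lowest shControl value, against 15.7% for RN7SL1 and 16.7% for RN7SL2. The log2 change was -0.25 (SE 0.068, 95% interval -0.41 to -0.09, limma adjusted p 0.0099).

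**Figure D1:**
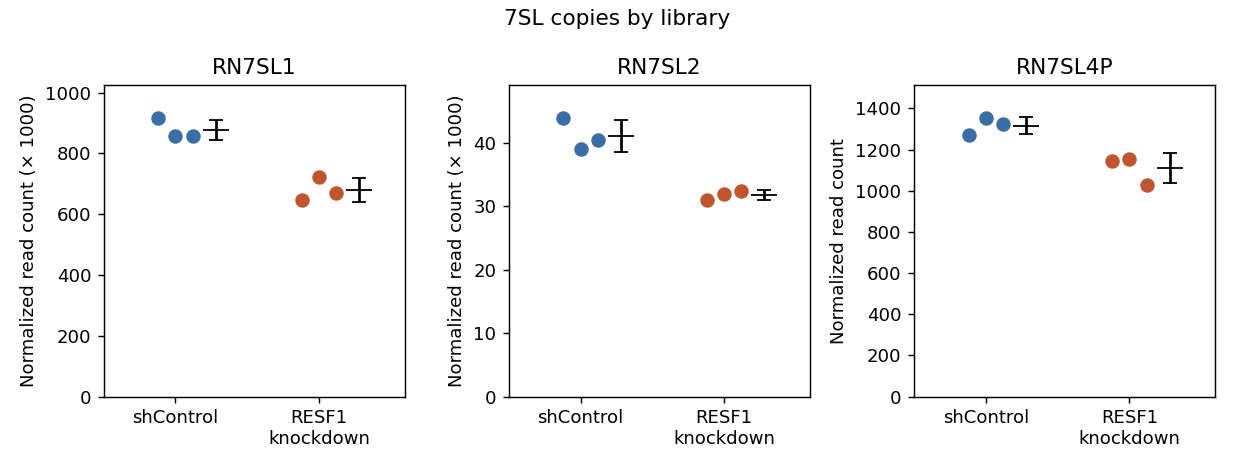
Normalized read counts of RN7SL1, RN7SL2 (both divided by 1000) and RN7SL4P, with 1 point for each library and the group mean ± SD beside the points. In all 3 panels the shControl points lie above the knockdown points, with the narrowest relative gap for RN7SL4P (9.13%).

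The 3 copies summed to 960410, 896983 and 899794 normalized reads in shControl and to 677444, 755488 and 704627 in knockdown, without overlap. The difference in log2 sum was -0.37 (SE 0.056), and the 9 differences between a knockdown and a shControl library ran from -0.50 to -0.25. The two-sided p by exact permutation was 0.1, which is the lowest value that groups of 3 can reach. Since RN7SL1 made up most of this sum, the sum follows RN7SL1.

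The 7SL copies were a large part of the listed signal, the sum over the 198 distinct features. They made up 64.7%, 63.7% and 63.7% of it in shControl and 59.1%, 61.2% and 59.4% in knockdown. The listed sum counts both RN7SK and AL162581.1, described below, whose shControl means were nearly equal (123852 and 122733). The 7SL sum was lower in knockdown by 206543 normalized reads, which is 83.9% of the difference in the listed sum between groups. For RN7SL2 the share of the listed sum was 2.77% to 2.95% in shControl and 2.58% to 2.74% in knockdown. RN7SL4P, at 0.0856% to 0.096% in shControl and 0.0866% to 0.0999% in knockdown, overlapped between groups.

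The median log2 change of the 7SL copies was -0.37 over 3 copies, against 0.25 over all 219 features tested. The 99 features that were lower in knockdown include the 3 copies and their duplicate rows. The median of the 99 was also -0.37, which is the value of RN7SL2 itself. Ordered by size from the smallest, the falls of RN7SL4P, RN7SL1 and RN7SL2 took places 14, 37 and 38 of the 87 distinct features that were lower. RN7SL1 and RN7SL2 were thus near the middle, and RN7SL4P was among the smaller falls.

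**Figure D2:**
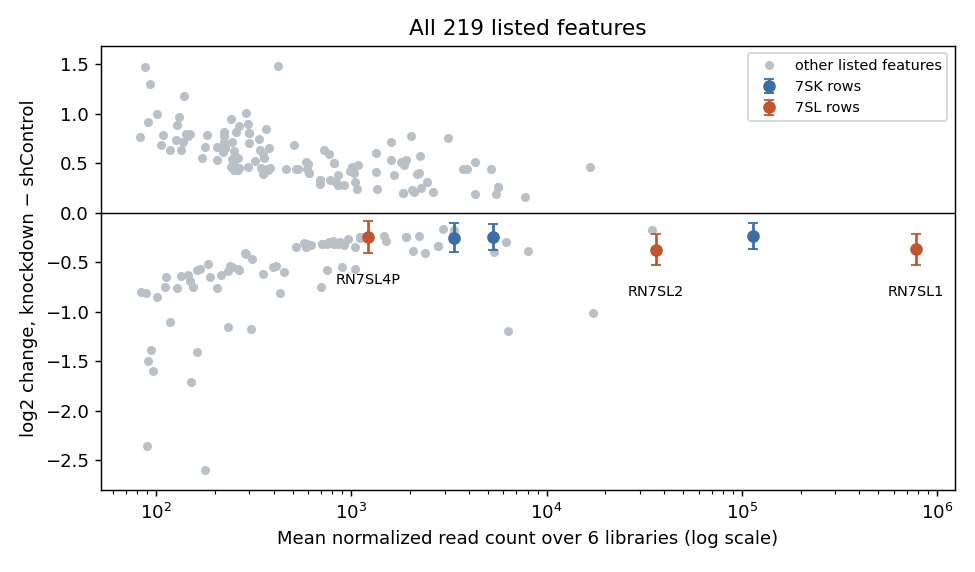
Log2 change (knockdown minus shControl) of all 219 listed features against their mean normalized read count, on a log scale. Bars on the 7SL and 7SK rows are 95% limma intervals. The 7SL copies lie between -0.37 and -0.25, with RN7SL1 at the far right as the most abundant feature.

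How far the falls depend on the scale of the libraries was examined by rescaling. With factors from the median ratio over the listed features, leaving out the 7SL and 7SK rows, the median of all features moved by -0.25 on the log2 scale. The log2 changes then were -0.62 for RN7SL1, -0.62 for RN7SL2 and -0.50 for RN7SL4P. Features called lower numbered 99 on both scales, while those called higher went from 120 to 73, so that the lower calls made up 57.6% of the calls in place of 45.2%. These factors by design bring the median of the listed features close to no change, here 0.0009, and move every feature by about the same amount. The larger falls of the copies and their unchanged order thus follow from the rescaling and are no result about the copies. The factors rest on selected features and are not a correction.

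Within each library the scale cancels when a copy is expressed as its share of the 7SL sum. This comparison asks whether the reads assigned to the copies changed by unequal amounts. Of the 201 windows of 100 bases in RN7SL2, 165 (82.1%) also occurred in RN7SL1 or RN7SL4P. As the assignment of such shared reads is not given, the shares cannot decide whether the RNAs of RN7SL1 and RN7SL2 changed alike. RN7SL1 took 95.3%, 95.5% and 95.4% of the sum in shControl and 95.3%, 95.6% and 95.2% in knockdown. The groups overlapped. The difference was -0.0067 percentage points (SE 0.139), with a two-sided p of 1 by exact permutation.

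The share of RN7SL2 was 4.56%, 4.35% and 4.50% in shControl. It was 4.57%, 4.22% and 4.61% in knockdown, again with overlap, and the highest and the lowest of the 6 shares were both in knockdown libraries. The difference was -0.0058 percentage points (SE 0.140, two-sided exact permutation p of 1). Between single libraries it ran from -0.35 to 0.26.

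The share of RN7SL4P was 0.132%, 0.151% and 0.147% in shControl and 0.169%, 0.153% and 0.146% in knockdown. The mean was higher by 0.013 percentage points in knockdown (SE 0.0089), but the library in column 6 lay below 2 of the shControl libraries. By exact permutation the two-sided p was 0.3, or 0.9 adjusted over the 3 copies. A difference in the division of the 7SL sum was thus not shown for any copy at 3 libraries per group, where p could not go below 0.1.

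**Figure D3:**
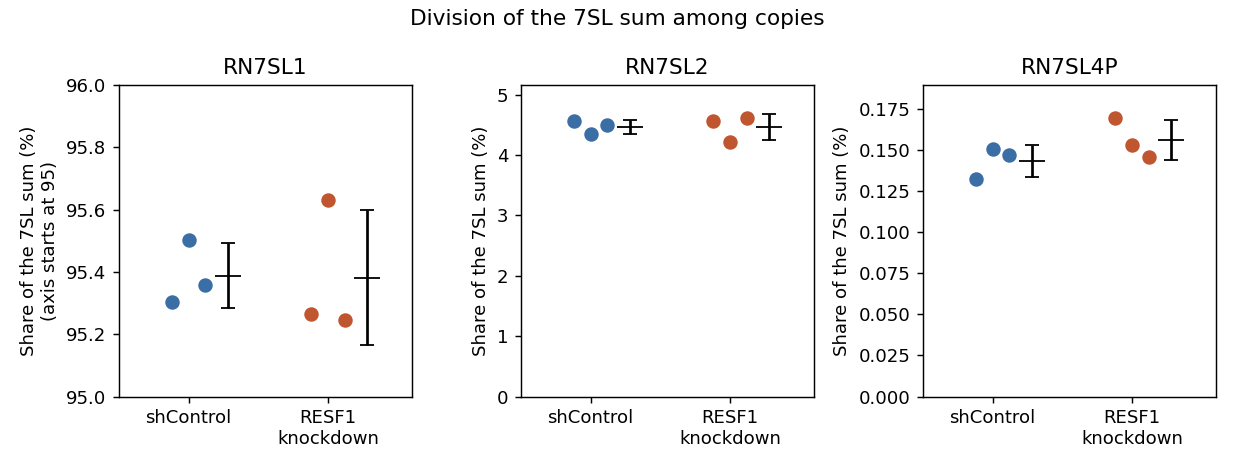
Share of each copy in the 7SL sum, in percent, with 1 point for each library and the mean ± SD. The axis of RN7SL1 starts at 95%, and the others start at 0. The groups overlap in all 3 panels.

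Per base of the annotated gene, RN7SL1 was 21.4-fold ± 0.57 (SD, n = 3) above RN7SL2 in shControl and 21.5-fold ± 1.11 (SD, n = 3) in knockdown. RN7SL1 exceeded RN7SL4P by 658-fold ± 45.6 (SD, n = 3) and 606-fold ± 45.7 (SD, n = 3), and RN7SL2 exceeded RN7SL4P by 30.8-fold ± 2.85 (SD, n = 3) and 28.2-fold ± 2.49 (SD, n = 3). The order of levels was therefore the same in all 6 libraries, with each step far larger than the spread. These are levels of reads as assigned to each copy. How reads that match several copies were assigned is not given, and the spread between libraries does not measure its effect.

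The 3 pairs of copies were then tested by their log2 ratio, which compares the changes of their assigned reads directly. The ratio of RN7SL2 to RN7SL1 differed between groups by -0.003 (SE 0.048), with differences between single libraries from -0.12 to 0.089 (two-sided exact permutation p of 1, adjusted p of 1). For RN7SL4P against RN7SL1 the difference was 0.12 (SE 0.085), from -0.045 to 0.35. For RN7SL4P against RN7SL2 it was 0.12 (SE 0.10), from -0.13 to 0.35. Both had an exact permutation p of 0.3, or 0.45 adjusted over the 3 pairs. The smaller fall of RN7SL4P was thus within the spread between libraries. Since the exact permutation p could not go below 0.1 and the assignment of shared reads is unknown, equal falls of the copies are not shown either.

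Deviations of the libraries from their group means, on the log2 scale, were compared between copies as a description. The correlation over the 6 libraries was 0.63 for RN7SL1 with RN7SL2 and -0.05 for RN7SL1 with RN7SL4P. It was -0.66 for RN7SL2 with RN7SL4P. These values rest on 6 points that share library and scale.

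RN7SK, the RNA of the 7SK particle, which holds back the elongation factor P-TEFb, is another abundant short product of RNA polymerase III. It served as a reference within the library, and it was itself lower in knockdown (log2 change -0.24, SE 0.055, limma adjusted p 0.00555). RN7SL1 was 7.23, 6.92 and 7.08 times RN7SK in shControl and 6.37, 6.71 and 6.29 times in knockdown, with no overlap. The difference in log2 ratio was -0.13 (SE 0.034), from -0.20 to -0.045 between single libraries. RN7SK itself was lower without overlap, and the groups of every listed feature did not overlap. The ratio to RN7SK therefore must separate the groups for each of the 120 of 219 features that were higher in knockdown. Among the 99 lower features it was not counted. A separation of this ratio is thus not particular to 7SL.

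The ratio of RN7SL2 to RN7SK was 0.346, 0.315 and 0.334 in shControl. In knockdown it was 0.305, 0.296 and 0.304, again without overlap. The difference in log2 ratio was -0.14 (SE 0.042). For RN7SL1, RN7SL2 and the 7SL sum the two-sided p by exact permutation was 0.1, the lowest possible, and 0.133 when adjusted over the 4 ratios tested.

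RN7SL4P differed here from the other copies in its values. Its ratio to RN7SK was 0.0100, 0.0109 and 0.0109 in shControl and 0.0113, 0.0107 and 0.0096 in knockdown. The groups overlapped, with the highest and the lowest ratio both in knockdown. The difference in log2 ratio was -0.012 (SE 0.08, exact permutation p of 0.8). As given above, the ratios of RN7SL4P to the other copies had an exact permutation p of 0.3. That test could not go below 0.1, so it does not decide whether the copies fell alike.

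**Figure D4:**
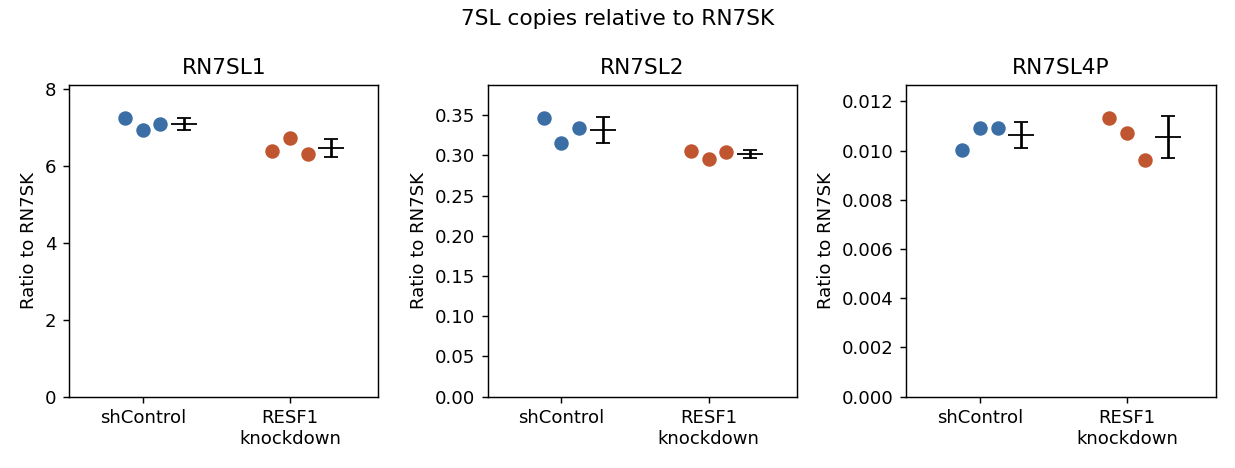
Ratio of each 7SL copy to RN7SK, with 1 point for each library and the mean ± SD. The groups are separate for RN7SL1 and RN7SL2 and overlap for RN7SL4P. This ratio must also separate the groups for each of the 120 listed features higher in knockdown, and it was not counted over the other lower features.

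Genes of the same pathway were looked for by symbol. Of 8 genes for the proteins of the signal recognition particle and its receptor, and of 6 genes for the Sec61 translocon, the channel through which the growing chain enters the endoplasmic reticulum, 0 were among the 44 symbols. Of 19 transcripts of RNA polymerase III, 1 was listed, RN7SK. The listed copies of 7SK RNA, RN7SKP71 and RN7SKP203, had log2 changes of -0.25 (SE 0.056, limma adjusted p 0.00514) and -0.25 (SE 0.063, limma adjusted p 0.00736). All 6 listed symbols of the 7SL and 7SK families were lower in knockdown, beside 45.2% of all features. Copies within a family may share reads, so these are not 6 separate observations. The other 175 features are named by transcript IDs, which the files pair with no gene name, so members of these lists among them would not be recognised.

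Of the symbols outside the 7SL copies, those with the pattern most like RN7SL1 over the 6 libraries were RN7SKP71, RN7SK and AL162581.1. Their Pearson correlations of log2 values with RN7SL1 were 0.991, 0.988 and 0.984, above the 0.969 of RN7SL2. The difference between groups contributes to each of these values, which lay between 0.758 and 0.991 over the 23 symbols that were lower in knockdown. For deviations within groups they were 0.897, 0.851 and 0.828, against 0.630 for RN7SL2. Symbols that were higher in knockdown also reached such values, with 0.879 for PTMAP2 and 0.821 for TUBA1B, which were picked after their values were seen, so the likeness within groups is not particular to 7SK RNA. The 6 points share library and scale. The values of AL162581.1 nearly equalled those of RN7SK, with means of 122733 against 123852 in shControl and 104763 against 105229 in knockdown. AL162581.1 and RN7SK are therefore not separate likenesses, and whether they count the same reads was not tested.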

How the data were processed

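Total RNA was extracted, and the authors made libraries with a stranded total RNA kit. For alignment to T2Tv2a the authors ran STAR 2.7.8a in Partek Flow with its defaults. The authors scaled libraries by the median ratio, and the authors used DESeq2 to call transcripts. The deposited values are a signal, normalized read counts by feature. They were not whole reads: 18.0% to 26.0% of low values per library lay within 0.1 of a whole multiple of one step, against 20% with no step. Depth is therefore unknown, and no counting interval is given.

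The copies were taken by symbol. The rows CHM13_T0061844, CHM13_T0061915 and CHM13_T0150143 carry the same 6 values as RN7SL1, RN7SL2 and RN7SL4P and were treated as duplicates. Columns were assigned to groups by name. All 219 features were fitted with limma 3.58.1 (R 4.3.3) on log2(value + 1), two-sided, with Benjamini-Hochberg adjustment over 219 features and a threshold of 0.05. This scale understates changes of low features. Sums, shares and ratios were tested by exact permutation (scipy 1.17.1), and 11 quantities in 4 families were compared. The script for limma was tested on simulated data. The members, lists and tests were chosen with earlier results of these data known. Besides the 3 copies, named genes were listed symbols of the preset pathway lists and the 3 symbols most correlated with RN7SL1. Annotated transcripts of GENCODE 44, whose sequences are not reported here, were aligned globally with Biopython 1.88 (match 2, mismatch -1, gap opening -5, extension -1, end gap opening -2), and an end was called unmatched after the last identical run of at least 20 bases. Alternatives were other pseudocounts, filters, distinct rows, rescaling, other forms of the share and leaving out each library.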

Additional observations from a re-analysis of the deposited data

How the results depend on the processing

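RN7SL1, RN7SL2 and RN7SL4P kept their direction and a limma adjusted p of at most 0.05 under all 13 alternatives run for each. Their log2 changes lay between -0.62 and -0.33, between -0.62 and -0.32, and between -0.50 and -0.19, with the largest adjusted p at 0.00769, 0.00726 and 0.0334. Leaving out 1 library at a time gave -0.41 to -0.33, -0.41 to -0.32 and -0.28 to -0.19, and 211 to 215 listed features called. Rescaling by all listed features left 181 features called, and rescaling without the 7SL and 7SK copies left 172, where the values as deposited gave 219. As the table holds only features that separate the groups, the low adjusted p-values of the copies are no result about them. What can be read is the range of the changes in these libraries, which the same selection can overstate.

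Of the 7 shares and ratios whose groups overlapped, 4 changed sign. Without 1 library the difference in the share of RN7SL1 ran from -0.13 to 0.061 percentage points and that of RN7SL2 from -0.078 to 0.12. The log2 ratio of RN7SL2 to RN7SL1 ran from -0.027 to 0.040, and that of RN7SL4P to RN7SK from -0.064 to 0.053. Each of these changed sign in 3 of 6 fits. The share of RN7SL4P (0.0059 to 0.018) and its log2 ratios to RN7SL1 (0.059 to 0.17) and to RN7SL2 (0.051 to 0.19) kept their sign. Taken over the sum of RN7SL1 and RN7SL2 only, the difference for RN7SL1 was 0.0052 percentage points. The cause was not tested. Shares per annotated base, chosen after seeing the data, changed no direction.

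No paired analysis was possible because column names count from 1 to 6 across both groups and give no replicate number. The planned fit of a count model was not run, since whole reads were not recovered. The filter of at least 10 in 3 libraries removed 0 features and so tests nothing.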
